A study of Flaveria angustifolia and Flaveria bidentis and Flaveria brownii with 21 samples.

Results

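The genes of the chloroplast genome were followed here through the leaves of 11 Flaveria species. They are the 74 loci whose Arabidopsis locus identifier places them on the chloroplast genome (prefix ATC), of 20551 loci with values. The other loci were 20431 nuclear and 46 mitochondrial ones. Values were RPM, reads per 1e+06 assigned reads of an RNA-seq library, counted at Arabidopsis loci. Each locus is called here by the standard Arabidopsis gene symbol of its identifier, since the identifiers stand alone in the data. Another 22 listed chloroplast loci, among them ndhB, rpl2, ycf2 and the ribosomal RNAs, were not analysed here.

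Flaveria is a genus of the daisy family whose living species range from C3 to C4 photosynthesis, and the study followed its leaf transcripts along that range and through leaf age. In C4 plants carbon dioxide is first fixed in mesophyll cells and then passed to the bundle sheath, where Rubisco works, while C3 plants fix it with Rubisco directly. Leaves came from greenhouse plants, several plants were pooled for a library, and there was 1 library per species and stage, 10 from juvenile and 8 from mature leaves. The photosynthetic types are textbook knowledge. The C3 species are F. cronquistii and F. pringlei. F. sonorensis, F. pubescens and F. angustifolia are intermediates, written C3-C4. The C4-like species are F. vaginata, F. palmeri and F. brownii, and the C4 species F. trinervia, F. kochiana and F. bidentis. Juvenile leaves alone were sampled in F. sonorensis, F. palmeri and F. vaginata, mature leaves alone in F. kochiana, and both stages in the other 7 species. With 1 pooled library per species and stage the replicate is the species, and no p-value here speaks to how plants of 1 species vary.

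The chloroplast genome codes for part of each photosynthetic complex, for part of the chloroplast's own ribosome, and for the core of a bacterial-type RNA polymerase (rpoA, rpoB, rpoC1 and rpoC2). Nuclear genes supply the remaining subunits, the sigma factors that direct this polymerase to promoters, and a second, phage-type polymerase. In Arabidopsis and tobacco the phage-type enzyme transcribes the rpoB unit early in leaf development, while most photosynthesis genes are read by the bacterial-type enzyme. Chloroplast genes are mostly copied as long transcripts of several neighbouring genes, which are then cut, trimmed and edited by nuclear-encoded proteins.

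Chloroplast loci took a small share of each library. A library held from 5.40 to 9.15 M assigned reads (M, 1e+06), and the chloroplast loci took between 31866 and 124415 of these reads. Where a locus is at 0, a level of up to 3 reads is still possible, which is 0.556 RPM at the lowest total and 0.328 RPM at the highest, counting error only. The juvenile F. brownii library stood apart. It held no read of petL, petN, psaI and ycf1.1, psbZ was at 32.2 RPM against 428 RPM or more in every other library, and psbT was at 1.63 RPM. For several loci the values without this species are given too. Without it 15 loci were higher and 17 lower in mature leaves, against 15 and 12 with it. Of all loci 1582 were higher and 5605 lower of 14358 without it, and 1843 and 5448 of 14500 with it. Neighbouring loci that overlap in Arabidopsis (psbD and psbC, ndhC and ndhK, atpB and atpE) can share reads, as can ycf1.1 and ycf1.2. Reads of psbN cannot be told from those of psbT and psbH on the opposite strand, because the use of strand was not given in the sources used here.

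The chloroplast share of all reads did not move one way with leaf age. In the C3 species it was 0.604% in juvenile and 0.585% in mature F. cronquistii, and 1.29% and 1.17% in F. pringlei. In the intermediates it was 1.53% and 1.05% in F. angustifolia and 0.599% and 1.05% in F. pubescens. It was 0.604% and 0.615% in F. brownii, 0.568% and 0.699% in F. bidentis and 0.698% and 0.864% in F. trinervia. The share was thus higher in the mature library in 4 of 7 species, and the mean difference of 0.0200 ± 0.286 percentage points (SD, n = 7 species) was smaller than its spread. Of the species with a single stage, juvenile F. sonorensis was at 1.65%, the highest of all, juvenile F. vaginata at 1.49%, juvenile F. palmeri at 0.978% and mature F. kochiana at 1.28%. The mitochondria-encoded loci, measured in the same way, were higher in the mature library in 1 of 7 species, F. brownii, where they went from 0.475% to 0.640%.

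**Figure D1:**
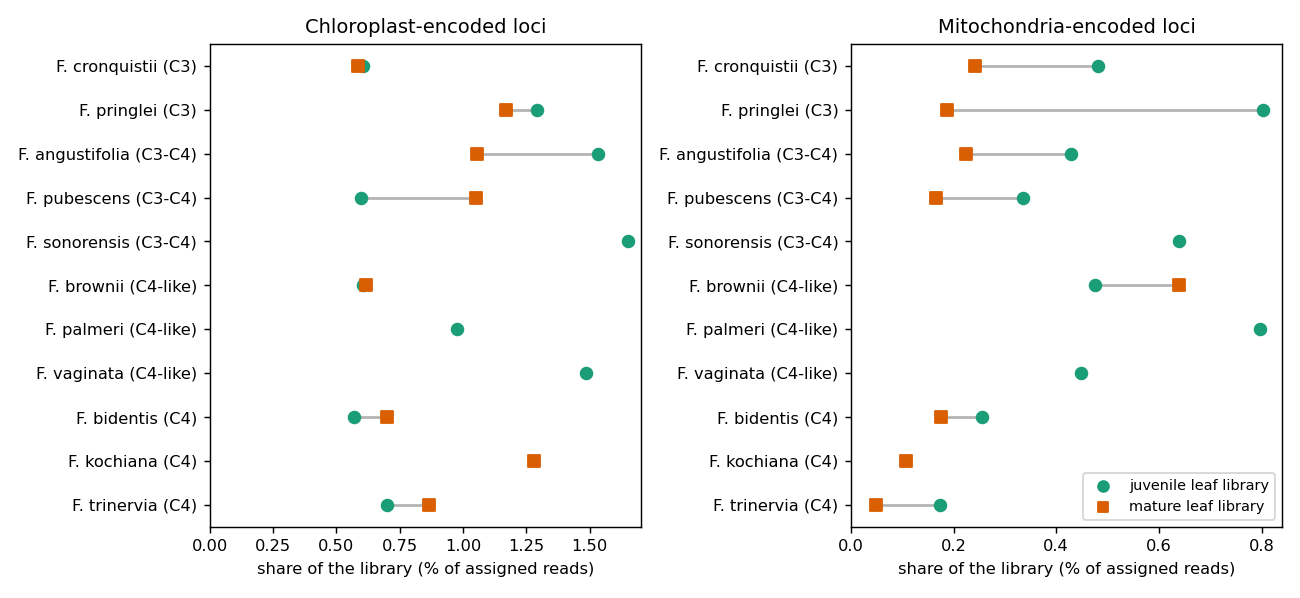
Share of assigned reads (%, horizontal axes) taken by chloroplast-encoded loci (left) and mitochondria-encoded loci (right) in every library, with circles for juvenile and squares for mature leaves and grey lines joining the stages of a species. The chloroplast share rose in 4 of 7 species, while the mitochondrial share fell in 6 of them.

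A few loci took most of the chloroplast reads, and which ones differed between species. The 10 leading loci of a library together took between 57.7% and 81.1% of its chloroplast reads. These shares count reads with no correction for gene length, so they describe what the libraries hold and not which transcript was most abundant per length. The largest mean share over the 18 libraries belonged to psbC (ATCG00280), which codes for the inner antenna protein CP43 of photosystem II, with 12.0% (range 4.69 to 22.3%). Next came psbZ (ATCG00300), a small photosystem II subunit, with 10.6% (0.533 to 32.1%), and rps3, a protein of the small ribosomal subunit, with 6.64% (0.483 to 18.2%). The antenna protein gene psbB followed with 5.71%, matK, the maturase that helps to splice chloroplast introns, with 5.04%, and ndhA, a membrane subunit of the NDH complex, with 4.23%. The remaining loci of the top 10 were rpl22 of the large ribosomal subunit at 3.83%, petA, which codes for cytochrome f, at 3.74%, clpP, the proteolytic subunit of the Clp protease, at 3.28%, and atpE, the ATP synthase epsilon subunit, at 2.89%. The leading locus of a library was psbC in 7 libraries, psbZ in 4, matK and rps3 in 2 each, and ndhA, ndhK and psbB in 1 each.

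The genes best known for abundant chloroplast RNA took small shares. The Rubisco large subunit gene rbcL (ATCG00490) had a mean share of 1.97% of chloroplast reads, with 0.451% in F. kochiana as the lowest and 4.01% in juvenile F. brownii as the highest value. The share of psbA (ATCG00020), which codes for the D1 reaction-centre protein of photosystem II, averaged 2.30% and ran from 0.943% to 6.15%. Both lay below the mean share of rps3 on this scale of reads per locus. The enrichment step of library preparation was not given in the sources used here, and its part in these low shares was not tested.

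Leaf age changed the make-up of the chloroplast reads in the same direction in all 7 species sampled at both stages. The 22 tested loci of the chloroplast's genetic system (ribosomal proteins and RNA polymerase) took a lower share of chloroplast reads in every mature library than in the juvenile library of the same species. Their share went from 36.8% to 16.4% in F. cronquistii, from 28.6% to 13.3% in F. pringlei and from 43.6% to 25.1% in F. angustifolia. It went from 24.2% to 9.77% in F. pubescens, from 34.9% to 17.8% in F. brownii, from 18.3% to 10.6% in F. bidentis and from 18.2% to 8.77% in F. trinervia. The loci of the photosynthetic complexes took a higher share in all 7 mature libraries, with a median of 54.1% (lowest 28.7%, highest 75.8%) in juvenile and 75.6% (59.9 to 85.5%) in mature leaves. Stage ranges of both groups overlapped across species, while every species moved the same way. The shares of a library sum to 100%, so these opposite movements are not independent. Part of the rise of the photosynthesis loci rests on 1 locus, psbZ. In F. cronquistii their share went from 54.1% to 75.6% and that of psbZ alone from 7.09% to 32.1%. The other photosynthesis loci together thus fell in that species. In F. brownii the group went from 54.1% to 68.0% and psbZ from 0.533% to 11.7%.

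Among the complexes, the NDH complex, which returns electrons from photosystem I to the plastoquinone pool, showed one of the clearest shifts. Its 10 loci went from a median share of 5.12% (4.43 to 15.5%) in juvenile to 13.7% (6.64 to 26.9%) in mature leaves and were higher in 7 of 7 species. The cytochrome b6f complex, which carries electrons between the photosystems, went from 4.64% (2.17 to 6.29%) to 6.91% (4.97 to 11.8%), also higher in 7 of 7 species. Photosystem II loci went from 30.3% to 39.6% and were higher in 6 of 7 species. In F. cronquistii the group went from 30.3% to 50.7% and in F. brownii from 26.0% to 35.8%. In both, the share of psbZ alone rose by more than that of the whole group. The 4 RNA polymerase loci went from 1.32% (1.05 to 3.19%) to 0.552% (0.449 to 0.797%), lower in 7 of 7 species, with no overlap between the stages.

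**Figure D2:**
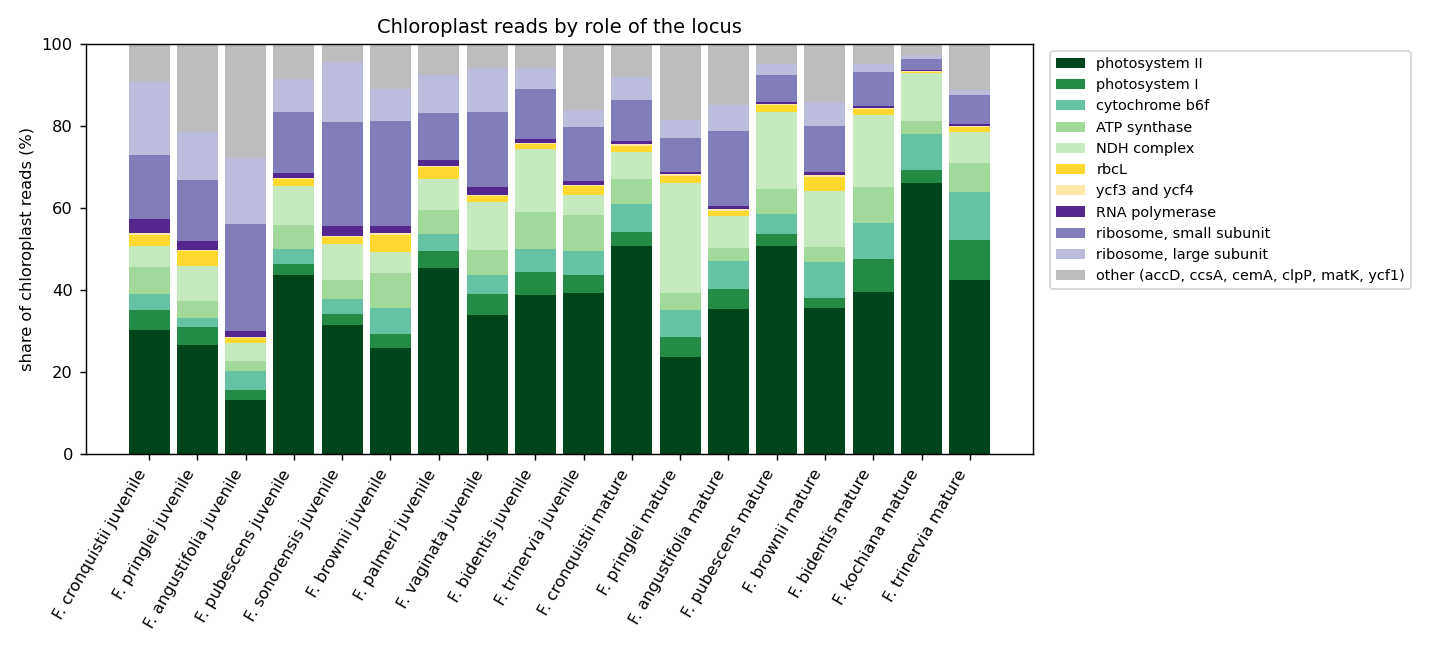
Share of chloroplast reads (%, vertical axis) by role of the locus in the 18 libraries, juvenile leaves on the left and mature leaves on the right, each set ordered from C3 to C4 species. The ribosome and RNA polymerase segments are narrower in the mature library of each of the 7 species with both stages.

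Single loci were then compared between mature and juvenile leaves in RPM, with the species as block. Of the 74 chloroplast loci 73 passed the low-value filter, all but psbL. In mature leaves 15 of them were higher and 12 lower at an adjusted p under 0.05 (limma on log2(RPM + 1), Benjamini-Hochberg adjustment over 14500 loci). Across all loci tested, 12.7% were higher and 37.6% were lower, 50.3% in either direction. The median log2 change was −0.05 for the chloroplast loci and −0.31 for all loci. Part of that shift depends on the scaling. TMM scaling sets the typical locus to no change. With it the median over all loci was −0.00 and that of the chloroplast loci 0.26. On that scale 26 chloroplast loci were higher and 8 lower, against 3354 and 3188 of all 14500 loci. Of the 34 chloroplast loci called with TMM scaling, 23 were among the 27 called as deposited. The number of chloroplast loci called, 27 of 73, was below the share of all loci, so the count is no result about the chloroplast genome. What follows is which of its loci moved and in which direction.

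Large falls were found in a run of ribosomal protein genes that ends with rpoA. The locus rpl14 (ATCG00780), a large-subunit ribosomal protein gene, was at 225 RPM in juvenile and 36.7 RPM in mature F. cronquistii, at 262 and 71.2 RPM in F. pringlei, at 283 and 48.2 RPM in F. angustifolia and at 63.4 and 39.7 RPM in F. pubescens. It was at 150 and 27.7 RPM in F. brownii, at 48.1 and 15.9 RPM in F. bidentis and at 38.7 and 8.08 RPM in F. trinervia. It was lower in the mature leaf of each species, although the stages overlapped across species, and the log2 change was −1.96 (SE 0.22, adjusted p = 4e-05). The locus rpoA (ATCG00740), the alpha subunit of the RNA polymerase, separated the stages without overlap, with a juvenile median of 58.7 RPM (44.0 to 194 RPM) and a mature median of 31.2 RPM (24.1 to 39.2 RPM). Its log2 change was −1.46 (SE 0.24, adjusted p = 0.00039). The large-subunit gene rpl16 fell by 1.75 on the log2 scale, and the small-subunit genes rps3 and rps19 fell by 1.16 and 0.90. All of these but rps19 were lower in 7 of 7 species.

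These loci lie close together in the Arabidopsis chloroplast genome, in the cluster from rps19 to rpoA. The grouping of loci into neighbouring clusters was written after the values had been seen, so it is a description. Of the 49 pairs of a species and 1 of the 7 loci of this cluster described here, 46 were lower in the mature library. Pairs were not counted over all loci, here or for the clusters below. The median log2 change of all loci was −0.31, so lower pairs were common in the whole table too. The summed RPM of the 7 loci from rps19 to rpoA in mature leaves was between 0.345 and 0.550 times that in juvenile leaves. It was lower in each of the 7 species. In F. angustifolia the sum went from 5846 to 2023 RPM, and in F. bidentis from 560 to 271 RPM. The exceptions were rps19 in F. cronquistii, at 52.8 and 54.5 RPM, and rpl22 and rpl36 in F. brownii. There rpl22 went from 41.9 to 224 RPM and rpl36 from 1.26 to 13.7 RPM. With all 7 species neither locus passed, at −0.94 for rpl22 and −1.28 for rpl36. Without F. brownii both were lower, at −1.50 and −1.94. As F. brownii was the exception at both, this is no separate support.

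The other 3 RNA polymerase genes, which form a cluster of their own, fell as well. The core subunit gene rpoB had a log2 change of −0.96 (SE 0.20, adjusted p = 0.0019), rpoC1 of −1.08 (SE 0.21, adjusted p = 0.0012) and rpoC2 of −0.61 (SE 0.21, adjusted p = 0.026). All 21 pairs of a species and 1 of these loci were lower in mature leaves. Their summed level was low, from 15.8 to 81.2 RPM in the juvenile and from 12.2 to 27.4 RPM in the mature libraries of these 7 species. With TMM scaling rpoC2 no longer passed, so that 3 of the 4 polymerase loci fell there. It also failed to pass without F. cronquistii, F. pringlei or F. trinervia.

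Not all ribosomal protein genes fell. Of 7 large-subunit loci 3 were lower and 0 higher. With 37.6% of all loci lower, that count is near the background. Besides rpl14 and rpl16, the large-subunit locus was rpl20, with a log2 change of −0.67 (SE 0.22, adjusted p = 0.026), a call that ended without F. angustifolia, F. cronquistii or F. pringlei and with TMM scaling. The small-subunit gene rps4, whose reads did not lie in the rps19 to rpoA cluster, had a log2 change of 0.27 that did not pass. With TMM scaling the call on rps19 ended too, and 4 other ribosomal loci, rps2, rps4, rps14 and rpl32, were higher with log2 changes of 0.60, 0.61, 0.73 and 0.85. Whether the ribosomal genes outside the cluster moved at all therefore depends on the scaling, while rpl14, rpl16, rps3 and rpoA were lower under both.

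**Figure D3:**
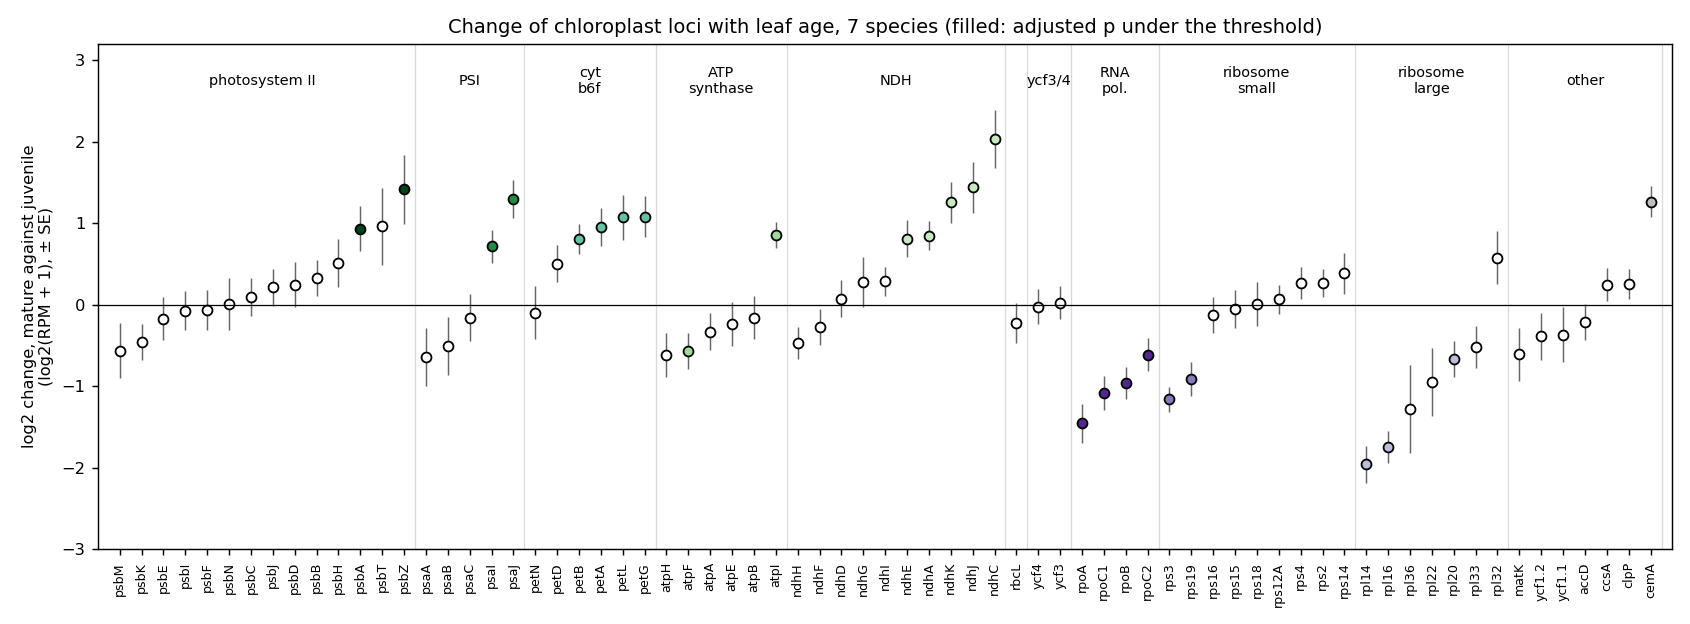
Log2 change of RPM + 1 from juvenile to mature leaves (vertical axis) for 71 of the 73 chloroplast loci tested, grouped by role, with bars for the SE over the 7 species and filled symbols for loci that passed. All falls that passed, except atpF, are in RNA polymerase and ribosomal loci, with rpl14 lowest of those plotted at −1.96, and ndhC is highest at 2.03.

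The largest rise was that of ndhC, 1 of 3 neighbouring NDH genes that all rose. The locus ndhC (ATCG00440), a membrane subunit, was at 15.6 RPM in juvenile and 58.5 RPM in mature F. cronquistii, at 86.7 and 491 RPM in F. pringlei, at 28.7 and 61.6 RPM in F. angustifolia and at 52.0 and 330 RPM in F. pubescens. It was at 4.88 and 111 RPM in F. brownii, at 15.7 and 22.3 RPM in F. bidentis and at 21.8 and 60.3 RPM in F. trinervia. It was higher in the mature leaf in each species, although the stages overlapped across species, and the log2 change was 2.03 (SE 0.35, adjusted p = 0.00059). Its neighbours ndhJ and ndhK, subunits of the arm that faces the stroma, rose by 1.44 and 1.26. All 21 pairs of a species and 1 of these loci were higher, and the summed level in mature leaves was between 1.42 times (F. angustifolia) and 6.13 times (F. pubescens) that in juvenile leaves. Without F. brownii, whose juvenile value of ndhC was low, the log2 change of ndhC was 1.66 and still passed.

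Other NDH loci were more varied. In all 5 of 10 rose and 0 fell, against 12.7% higher and 37.6% lower of all loci. Besides those 3 loci these were ndhA, with a log2 change of 0.85, and ndhE, with 0.81, both higher in 7 of 7 species. Without F. brownii, where juvenile ndhE was at 0.361 RPM, the change of ndhE was 0.62 and still passed. The membrane subunit genes ndhD and ndhF had log2 changes of 0.08 and −0.28 and ndhH, a subunit of the stroma arm, one of −0.47, none of which passed. Of 7 nuclear genes for NDH subunits 5 were higher in mature leaves and 0 lower, against 12.7% higher and 37.6% lower of all loci, led by NDHT with a log2 change of 1.98.

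Genes of the cytochrome b6f complex rose in 4 of 6 cases, where 12.7% of all loci were higher. Cytochrome f (petA) had a log2 change of 0.96 (SE 0.23, adjusted p = 0.0049), cytochrome b6 (petB) of 0.80 (SE 0.18, adjusted p = 0.0034), and the small subunits petG and petL of 1.08 and 1.07. The level of petA went from a range of 104 to 431 RPM in juvenile to 216 to 706 RPM in mature leaves, higher in 6 of 7 species. The exception was F. angustifolia, with 431 RPM in juvenile and 380 RPM in mature leaves. The low locus petL, which held no read in juvenile F. brownii and changed by 0.95 without that species, was at 47.3 RPM in mature F. trinervia and at 11.8 RPM or less in every other library.

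In the photosystems most loci did not pass. Of 5 photosystem I loci 2 rose and none fell, against 12.7% higher and 37.6% lower of all loci. In photosystem I the small subunit genes psaJ and psaI rose by 1.30 and 0.72, while psaA and psaB, the reaction-centre proteins, had log2 changes of −0.64 and −0.50 and the iron-sulfur subunit gene psaC one of −0.16, none of which passed. The locus psaI lay near the low-value filter and was tested in 3 of the 7 fits that leave out a species. In photosystem II 2 of 14 loci rose, psbZ and psbA, a count near the 12.7% of all loci that were higher. The level of psbZ went from 428 to 1877 RPM in F. cronquistii and from 32.2 to 723 RPM in F. brownii, but only from 562 to 584 RPM in F. bidentis. Its log2 change was 1.42 (SE 0.43, adjusted p = 0.015), and 0.91 without F. brownii, which still passed. The D1 gene psbA went from a median of 155 RPM (56.5 to 201 RPM) to 283 RPM (98.6 to 531 RPM), a log2 change of 0.94 (SE 0.27, adjusted p = 0.013). It was higher in 6 of 7 species, and in F. brownii it went from 192 to 98.6 RPM. Without that species the log2 change was 1.25. The large photosystem II genes psbB, psbC and psbD, the last coding for the D2 reaction-centre protein, had log2 changes of 0.33, 0.10 and 0.25 that did not pass. With TMM scaling 5 of the 14 were higher, psbB at 0.67 and the small subunit genes psbT and psbH at 1.29 and 0.84 besides psbZ and psbA. Of all 14500 loci 3354 were higher on that scale.

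The ATP synthase and the remaining genes gave few calls. Of 6 ATP synthase loci atpI, subunit a of the membrane part, rose by 0.86 and atpF, subunit b, fell by 0.57. The call on atpF ended with TMM scaling, with no low-value filter and without F. angustifolia, F. brownii, F. cronquistii or F. pringlei in turn. The catalytic subunit genes atpA and atpB had log2 changes of −0.33 and −0.16 and the ring subunit gene atpH one of −0.61, which did not pass. Without F. bidentis or F. pubescens atpH passed as lower, at −0.75 and −0.83, and without F. pubescens so did ndhH, at −0.62. The envelope membrane protein gene cemA rose by 1.27 (SE 0.19, adjusted p = 0.00022), and lies next to petA. The log2 change of rbcL was −0.22 (SE 0.25, adjusted p = 0.48). The values of accD, a subunit of the plastid acetyl-CoA carboxylase, of clpP, matK, ycf1.1 and ycf1.2, parts of a protein import channel gene, were −0.21, 0.26, −0.61, −0.36 and −0.39, and none passed. The values of matK, ycf1.1 and ycf1.2 rest on F. brownii, the 1 species of 7 in which they were higher in the mature library. Without it they were −0.99, −0.78 and −0.74, and all 3 passed as lower, as did 5605 of all 14358 loci. The species left out was the one that went the other way, so these calls are no separate support. With TMM scaling and all 7 species the values were −0.27, −0.11 and −0.045, and none passed. With TMM scaling clpP was higher, at 0.60. Over all 46 loci that were not called the log2 changes ran from −1.28 (rpl36) to 0.96 (psbT).

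In some clusters of neighbouring genes most pairs of a species and a locus lay on one side, and in others they did not. Of the 28 pairs of a species and a locus in the cluster psaI, ycf4, cemA and petA, 25 were higher in mature leaves. In the cluster of petL, petG, psaJ, rpl33 and rps18, 26 of 35 pairs were higher, as were 26 of 35 in the cluster of psbB, psbT, psbH, petB and petD. Of the 13 clusters, 7 others had counts closer to even. They were 32 of 49 pairs higher from ndhH to ndhD, 14 of 21 for psbD, psbC and psbZ, 8 of 14 for atpB and atpE, and 15 of 28 from psbE to psbJ. For psaA, psaB and rps14 they were 10 of 21, from atpI to atpA 13 of 28, and for psbK and psbI 5 of 14. In the cluster of petL, the photosynthesis genes petL, petG and psaJ passed while the ribosomal genes rpl33 and rps18 did not, so neighbours of different role did not all move alike. Neighbouring loci can share reads of 1 long transcript, and the part of such reads in the common direction was not tested.

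**Figure D4:**
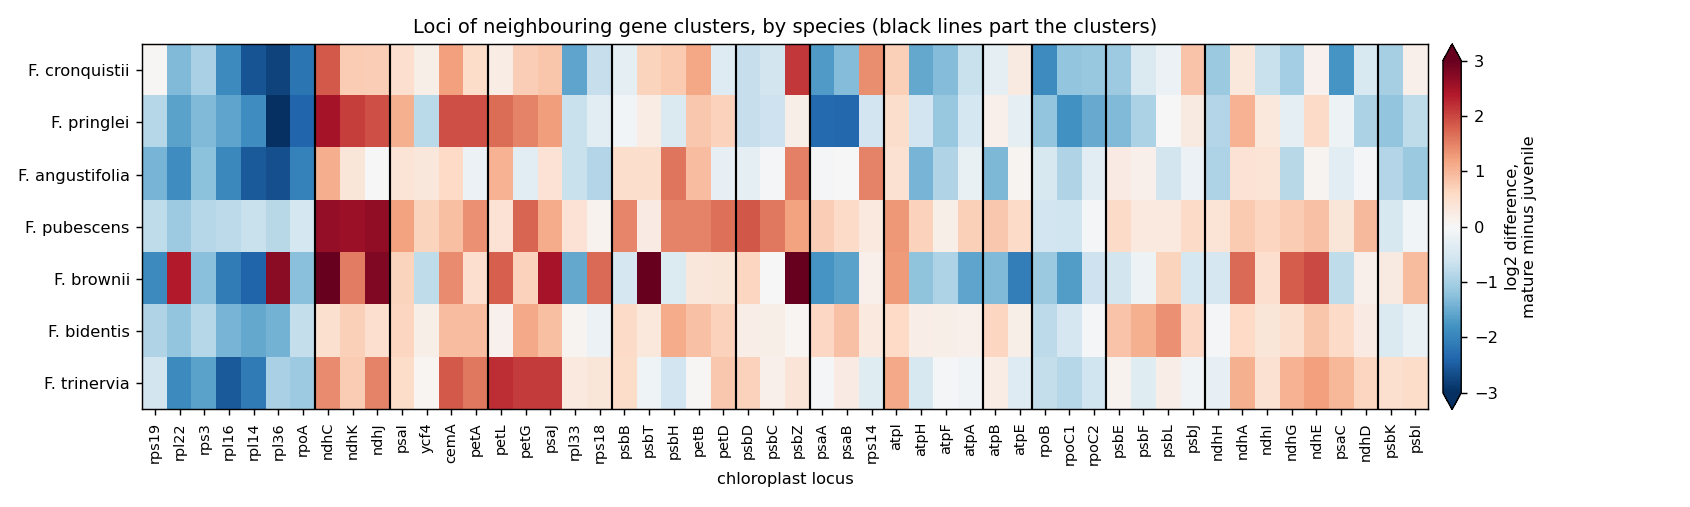
Log2 difference of RPM + 1 between mature and juvenile leaves (colour, red for higher in mature leaves, limited to ±3) for loci of 13 neighbouring clusters (horizontal axis) in the 7 species with both stages. In the first cluster, rps19 to rpoA, 46 of 49 cells are lower in mature leaves, and in the second, ndhC, ndhK and ndhJ, all 21 are higher.

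Expressed relative to the chloroplast total of each library, which removes differences in that total, the pattern of leaf age was much the same. Of 73 loci 14 were higher and 16 lower, against 7.72% higher and 34.1% lower of all loci on the same scale, 41.8% in either direction. The loci called in both ways numbered 26. Only psaI passed in RPM alone, and rpl36, rpl22, atpH and ndhH passed only relative to the total, lower by 1.38, 1.04, 0.72 and 0.57 on the log2 scale. Leaving out a species in turn ended 13 of the 30 calls on this scale, these 4 among them. The rest were those on rpl20, rpoC2, atpF, petB, ndhE, ndhA, psbA, petA and petL. That on rpl36 ended without F. angustifolia or F. pubescens, and that on rpl22 without these or F. trinervia. The call on atpH ended without F. brownii, F. cronquistii, F. pringlei or F. trinervia, that on ndhH without any of these or F. bidentis, and both ended with no low-value filter. Without F. pringlei the count of higher loci went to 8, against 832 of all 14494 loci.

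Nuclear genes of chloroplast transcription moved alongside. Of 19 tested genes of the plastid transcription machinery 13 were lower in mature leaves and 2 higher, where 37.6% of all loci were lower and 12.7% higher. Their median log2 change was −1.16 against −0.31 for all loci. With TMM scaling 11 were lower and 4 higher, against 3188 and 3354 of all 14500 loci. The polymerase-associated proteins PAP7, PAP11, PAP1 and PAP2 fell by 1.79, 1.61, 1.58 and 1.58, each lower in 7 of 7 species. The 2 that rose were sigma factors, SIG5, which responds to light and stress, by 1.58 and SIG1 by 0.62. The level of SIG5 went from a median of 98.5 RPM (61.7 to 133 RPM) to 282 RPM (198 to 483 RPM), with no overlap between stages.

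Of 11 tested nuclear genes for chloroplast RNA processing and stability 1 was higher and 5 were lower. With 37.6% of all loci lower and 50.3% called in either direction, this count is near the background and is no result about the list. The exoribonuclease PNP fell by 2.05, from a median of 35.7 RPM (31.0 to 85.9 RPM) to 9.22 RPM (8.07 to 13.7 RPM), with no overlap between stages, and the endoribonuclease RNE fell by 1.09. Among the proteins that act on a particular transcript in Arabidopsis, HCF152, needed for petB transcripts, rose by 1.13 beside the rise of petB of 0.80. MRL1, which stabilises rbcL transcripts, fell by 1.15 beside the value of −0.22 for rbcL, and PGR3, which acts on petL transcripts, fell by 1.13 beside the rise of petL of 1.07. The call on RNR1, at −0.43, ended with TMM scaling and when any of 6 of the 7 species was left out in turn.

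Other tissue markers moved with leaf age in these libraries. The flower gene SEP3 was low and lower in mature leaves (median 3.42 and 1.60 RPM), and the phloem gene SUC2 was higher (34.5 and 72.2 RPM). The flower gene AG reached at most 2.36 RPM and the meristem gene STM 0.247 RPM. The leaf marker RBCS1A, a Rubisco small subunit gene, was at 1661 RPM or more in every library. In bulk leaf samples fewer cells of a type and less RNA per cell cannot be told apart, and the part of the tissue make-up in these changes was not tested.

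Between photosynthetic types few chloroplast loci passed, and few of all loci did. The fits of type and of leaf age differ in form, and the sizes of their differences were not compared by a test. Type fits treat the species as independent and hold no term for their ancestry. A difference between types therefore cannot be told apart from one between lineages. When the C4 and C4-like species were set against the other types, 71 loci were tested, without psaI, psbJ and psbL, and 0 were higher and 1 lower, against 0.974% higher and 0.428% lower of all 14479 loci, 1.4% in either direction. At an unadjusted p under 0.05 there were 13 chloroplast loci, and 1791 of all 14479 loci. The 1 locus was rpl16, a large-subunit ribosomal protein gene. It had a median of 114 RPM (38.8 to 440 RPM) in the 9 C3 and C3-C4 libraries and of 47.5 RPM (8.08 to 183 RPM) in the 9 C4 and C4-like ones, and the groups overlapped. Its log2 difference was −1.46 (SE 0.35, adjusted p = 0.038). Among the alternatives tried the call held only with a pseudocount of 0.1, in the edgeR test on recovered reads, which called 5 loci lower, and without F. pubescens, when 3 loci, rpl14, rpl16 and rps3, were lower. It ended when any other species was left out in turn and in each remaining alternative. The difference ran from −1.84 to −1.24 over the fits that leave out a species. Of all loci edgeR called 264 lower of 14479, and the fit without F. pubescens 61 of 14467.

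With the C4 species against the C3 species alone, 2 of 71 loci were lower and 0 higher, against 0.47% lower and 0.801% higher of all loci, 1.27% in either direction. They were rpl14, with a log2 difference of −2.33 (SE 0.50, adjusted p = 0.022), and rpl16, with −2.29 (SE 0.51, adjusted p = 0.028). In the 4 C3 libraries rpl14 was at 225 and 36.7 RPM in F. cronquistii and at 262 and 71.2 RPM in F. pringlei, juvenile leaves first. In the 5 C4 libraries it was at 48.1 and 15.9 RPM in F. bidentis, at 38.7 and 8.08 RPM in F. trinervia and at 8.87 RPM in mature F. kochiana. At each stage the C3 values lay above the C4 ones. Both calls ended with TMM scaling, with 1 value per species, and without F. bidentis, F. pringlei, F. trinervia or F. cronquistii in turn. Without F. cronquistii 4 other loci passed in their place, clpP, ndhK, rpl20 and rps12A, and without F. brownii or F. pubescens 1 more locus joined. Of all loci 14, 89 and 65 were lower in these fits, in that order. The median over all loci was −0.12 in this comparison and −0.01 with TMM scaling.

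Relative to the chloroplast total, 0 of 71 loci passed in either direction between the types by limma. Of all loci 0.359% were higher and 0.0276% lower, 0.387% in either direction. An unadjusted p under 0.05 was found for 12 chloroplast loci and for 710 of all 14479 loci. Without F. cronquistii 1 locus, psbM, was lower, against 2 of all 14432 loci. The chloroplast share of reads overlapped across types, from 0.585 to 1.29% in C3, 0.599 to 1.65% in C3-C4, 0.604 to 1.49% in C4-like and 0.568 to 1.28% in C4 libraries.

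The genes of the Rubisco subunits, of which the chloroplast codes for the large one and the nucleus for the small one, gave different values. The large subunit gene rbcL had a median of 178 RPM (84.6 to 479 RPM) in C3 and C3-C4 and of 143 RPM (57.6 to 271 RPM) in C4 and C4-like libraries, with a log2 difference of −0.38 (SE 0.35, adjusted p = 0.73). Of 4 nuclear small subunit genes 3 were lower in the C4 and C4-like species, against 0.428% of all loci, with RBCS1A at −2.25 (SE 0.43, adjusted p = 0.009). The small subunit genes are close copies, so reads may have been split between them, and the difference between rbcL and RBCS1A was not tested.

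For the NDH complex, of 10 chloroplast ndh loci 0 passed between the types by limma, with a median log2 difference of 0.36 and a range from −1.23 to 0.85. Of 7 nuclear genes for NDH subunits 6 were higher in the C4 and C4-like species, against 0.974% of all loci, with a median of 1.74. With TMM scaling 4 were higher, against 119 of all 14479 loci. The difference between the chloroplast and the nuclear genes was not tested. The lowest values among the ndh loci were those of ndhC and ndhK, at −1.23 and −1.22. Both were highest in mature F. pringlei and mature F. pubescens, where ndhK was at 1471 and 890 RPM against at most 348 RPM in any other library. In the edgeR test on recovered reads ndhK was lower in the C4 and C4-like species, at −1.68, and over the limma fits that leave out a species it ran from −1.85 to −0.59.

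Some loci varied widely between single species of the same type. Of the 70 loci with a read in every library the highest library was a median of 13.3 times above the lowest, and 43 loci spanned more than 10 times and 5 more than 100 times. Such spans mix species and stages and were not counted over all loci, so they are no result about the chloroplast genome. The small photosystem II gene psbM, named here because of this spread, was at 507 and 84.5 RPM in juvenile and mature F. pringlei and at 584 and 269 RPM in F. pubescens. In all other libraries it lay between 0.641 and 17.0 RPM. F. pringlei is a C3 species and F. pubescens an intermediate, while the other C3 species, F. cronquistii, was at 2.22 and 1.83 RPM. The log2 difference of psbM between the types, −3.05 (SE 0.97, adjusted p = 0.16), did not pass, but it did without F. cronquistii, at −4.58, and in the edgeR test on recovered reads. Without F. pringlei it was −1.53.

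The maturase gene matK spanned from 12.1 RPM in F. kochiana to 3596 RPM in juvenile F. angustifolia. It was at 1612 RPM in juvenile F. pringlei and at 820 RPM in juvenile F. trinervia, a C4 species, but at 33.1 RPM in juvenile F. pubescens and 23.5 RPM in juvenile F. bidentis. In juvenile F. angustifolia it took 23.5% of the chloroplast reads. High and low species occurred within the intermediates and within the C4 species.

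Mature F. kochiana stood apart from the other libraries at the cluster from psbB to petD. Its summed level of the rps19 to rpoA cluster was also the lowest, at 169 RPM against 222 RPM or more elsewhere. Its psbB level was 3976 RPM, where every other library lay between 94.9 and 674 RPM, and psbB alone took 31.1% of its chloroplast reads. The neighbouring small photosystem II genes psbT and psbH were also highest in this library, at 1490 and 143 RPM, against at most 266 and 59.2 RPM elsewhere. The next genes of the cluster, petB and petD, which codes for subunit IV of the cytochrome b6f complex, are part of the same transcription unit in Arabidopsis. Here petB was at 269 RPM, where the other libraries reached at most 205 RPM, and petD at 88.5 RPM against at most 34.5 RPM. With 1 library of this species, species and library cannot be told apart.

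**Figure D5:**
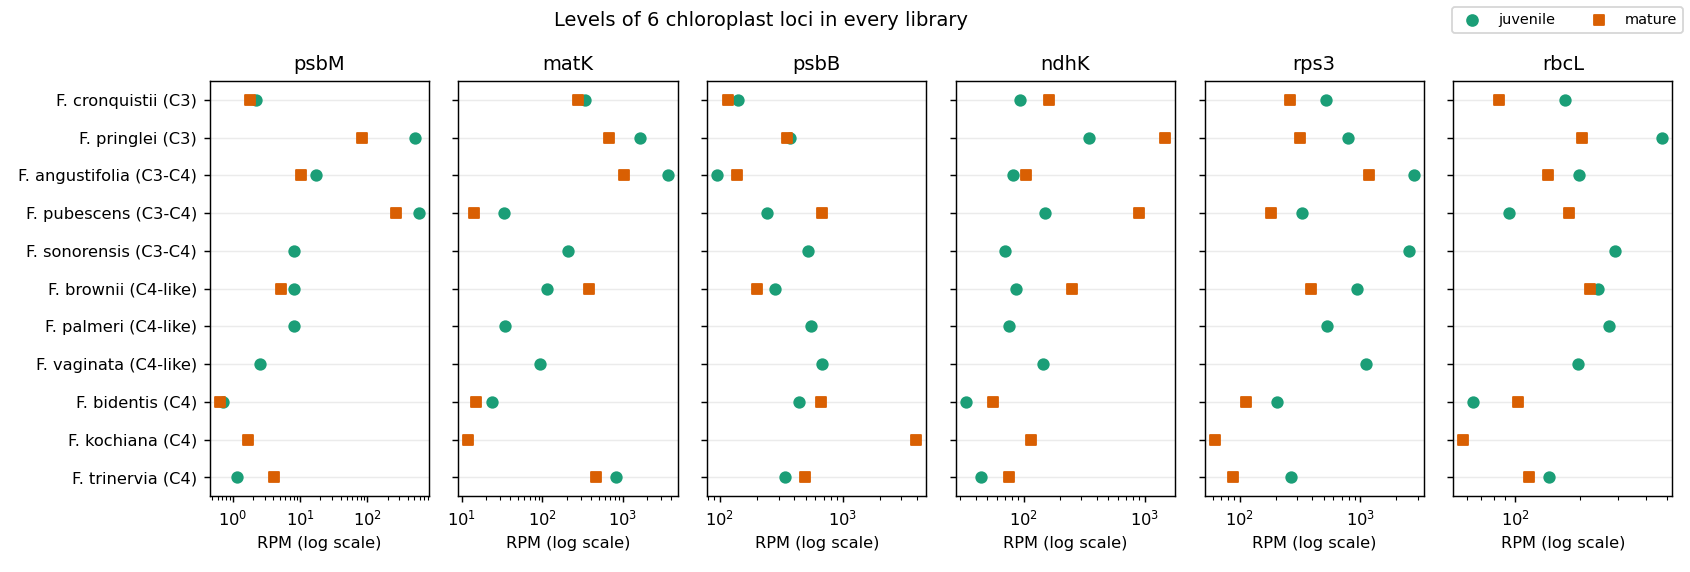
Level (RPM, log scale on the horizontal axes) of psbM, matK, psbB, ndhK, rps3 and rbcL in each species, with circles for juvenile and squares for mature leaves. F. pringlei and F. pubescens stand above the others in psbM, and F. kochiana stands above them in psbB at 3976 RPM.

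The change with leaf age was not shown to differ between the types. A limma fit used the 7 differences between stages, 3 from C4 or C4-like and 4 from C3 or C3-C4 species. In it 0 of 73 chloroplast loci passed, and 0% of all 14500 loci did. An unadjusted p under 0.05 was found for 10 chloroplast loci and for 1027 of all loci. With TMM scaling 0 passed as well.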

How the data were processed

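The authors deposited values in RPM, reads per 1e+06 assigned reads, for Arabidopsis loci in 18 Flaveria libraries. The Arabidopsis genome build was TAIR10, per the submitters' processing notes. Per the labels' protocols, libraries were made by a sequencing service from total RNA. The aligner, the counting rule, the use of strand and any poly(A) selection are not given in the sources used here. All columns of the series' table that were used match 1 labelled library each, and 0 columns were left out. Samples of 3 out-group species were not analysed here. A few single results are not reported here.

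Divided by what 1 read is worth in its library, 100% of the deposited RPM values came out whole to within 0.001 reads, which gave the read totals. On these reads edgeR 4.0.16 (quasi-likelihood test) called 24 chloroplast loci higher and 8 lower in mature leaves, against 3279 and 3062 of all 14500 loci. The test reported is limma 3.58.1 (R 4.3.3) on log2(RPM + 1), with moderated variances, a mean trend, a low-value filter at a mean of 2 RPM, and Benjamini-Hochberg adjustment over all loci tested at a threshold of 0.05. Fold changes on this scale understate the change of low loci. The stage fit used 14 libraries with the species as block. The type fits used 18 libraries with stage as covariate and species as random block (correlation 0.493), so their p-values rest partly on libraries of the same species. A second set of fits divided each value by the chloroplast total of its library. Totals and role groups were described without a test. The scripts were tested on simulated data.

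The species labels pair the stages. Deviations from the stage means correlated by 0.440 to 0.717 between the libraries of a species, and each of 7 pairs correlated best with its own partner. The largest correlation with another species was 0.306 for F. bidentis and 0.350 for F. trinervia, both C4, and at most 0.092 for the rest.

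The members, lists and tests were chosen with earlier results of these data known. Named loci are the 10 with the largest mean share, up to 20 that passed per comparison by size, a list of main genes of each complex, and up to 6 nuclear genes per list. Of the others that are named, ndhE, psaI, rpl20 and atpF complete a count, and psbM, psbT, psbH, petD, rpl36, rpl33, rps2, rps12A, rps14, rps18, rpl32 and NDHT were chosen after their values were seen. Alternatives tried were another pseudocount (0.1), no low-value filter, TMM scaling, edgeR, leaving out each species, 1 value per species, single stages, and no replicate block.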

Additional observations from a re-analysis of the deposited data

Results flagged for a closer look

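In 50 groups of values checked for a sample that stands apart from the rest, 6 such samples were found, where chance flags about 1 in 20 groups. Of these, 4 were differences between stages in F. brownii, whose juvenile library held no read of 4 chloroplast loci. The log2 difference between mature and juvenile F. brownii was −0.96 for psbA, while the other 6 species were higher in mature leaves. It was 1.71 for matK, 2.11 for ycf1.1 and 1.70 for ycf1.2, while all 6 other species were lower in mature leaves at each of these loci. The mitochondrial share of reads in mature F. brownii, 0.640%, stood above that of the other mature libraries. Juvenile F. pringlei and juvenile F. palmeri were higher still, at 0.803% and 0.797%. The chloroplast shares of F. brownii, 0.604% and 0.615%, and its juvenile mitochondrial share, 0.475%, lay within the range of the other libraries. In F. pubescens the log2 difference of psbC was 1.58, and the other species ran from −0.62 to 0.18.

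The stage difference of ndhF had opposite signs in the 2 sets of types. It was higher in mature leaves in all 3 C4 or C4-like species and lower in all 4 C3 or C3-C4 species, a difference of 1.15 on the log2 scale. The limma test of that difference did not pass (adjusted p = 0.63).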

How the results depend on the processing

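The counts of loci that changed with leaf age depended on the scaling and on the block. With TMM scaling 26 loci were higher, and in the edgeR test on recovered reads 24, against 15 as deposited. Of all loci these fits called 3354, 3279 and 1843 higher. Without the replicate block, which ignores that both stages come from the same species, 4 loci were higher and 6 lower, all 10 among those called with the block. Of all 14500 loci that fit called 739 higher and 3101 lower. Leaving out each species in turn gave 14 to 17 higher and 9 to 17 lower loci. Of all loci those fits called 1524 to 1826 higher and 4457 to 5605 lower. Relative to the chloroplast total, no replicate block left 1 higher and 6 lower, and leaving out each species gave 8 to 14 higher and 11 to 17 lower. Of all loci the first called 277 higher and 1696 lower. The others called 764 to 1451 higher and 3969 to 5619 lower.

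Of 39 chloroplast and nuclear loci named and called with leaf age, TMM scaling and edgeR each ended 5 calls, leaving out a species ended 4, no filter ended 2, and no block ended 18. Signs turned only for loci that had not passed. With TMM scaling and with edgeR these were rbcL (0.13 and 0.12), psaC (0.17 and 0.21), atpA (0.0139 and 0.0273), atpB (0.18 and 0.21), ndhF (0.0505 and 0.0602) and accD (0.0769 and 0.0964). Over the fits that leave out a species psbC ran from −0.15 to 0.22, psbD from −0.0202 to 0.41, psaC from −0.35 to 0.11, atpB from −0.32 to 0.0412 and ndhD from −0.0707 to 0.25. The cause was not tested.

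For the C4 and C4-like against the C3 and C3-C4 species, the count of lower loci went from 1 to 0 with 1 value per species, with juvenile or mature libraries alone, with no filter and with TMM scaling, and to 5 with edgeR. Leaving out a species gave 0 to 3. Of all loci edgeR called 264 lower, and the fits that leave out a species 18 to 175. For C4 against C3 the count of lower chloroplast loci went from 2 to 0 with 1 value per species and with TMM scaling. Over the left-out species it ran from 0 to 4, against 14 to 115 of all loci. Relative to the chloroplast total the count for the C4 and C4-like species ran from 0 to 1, against 1 to 33 of all loci. The mean stage difference of the chloroplast share ran from −0.0522 to 0.103 percentage points when a species was left out, and was 0.0119 without psbC, each within its spread.

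Depth limits what can be said of loci at 0 in a library, such as psaI and petN in juvenile F. brownii, and there were no rRNA loci among the 74 to leave out of the total.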
